A study of Mus musculus with 7 samples.

Results

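The MEIS and PBX genes studied here are Meis1, Meis2, Meis3, Pbx2 and Pbx3, 5 of the 21887 mouse protein-coding genes in the RefSeq table used. Their loci were defined as the gene body extended by 100 kb on each side, and open chromatin was described in each of 7 libraries as the peaks that touch such a window. In all, 146 of 130788 regions with a peak in any library lay there. The genes were selected on their family and with the numbers of peaks around them in these libraries already known, so every difference between groups below is a description and carries no test.

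Open chromatin had been measured by Omni-ATAC, a form of ATAC-seq in which a transposase inserts adapters into DNA that nucleosomes do not cover. The replicated groups were first pharyngeal arch ectoderm of embryonic day 11.5 (E11.5), peeled from its mesenchyme after Dispase II treatment (replicates 1 and 2), and Sox2-positive cells of the lower incisor at postnatal day 2 (P2), which the labels call DESC (replicates 1 and 2). The latter came from the labial cervical loop, the epithelial niche at the growing end of the incisor. They were dissociated with enzymes and sorted by fluorescence from the Sox2-GFP mouse line, in which the endogenous Sox2 promoter drives GFP, so the sort followed that reporter rather than a lineage. The whole lower incisor, the lower first molar and the upper first molar at P2 gave 1 library each, and values of these have no replicate check. Strain and pooling of animals are not given in the sources used here, nor whether replicates came from separate animals, so the SDs may measure technical spread only. Ectoderm and Sox2-positive cells differ in age, tissue, dissociation and sorting at once, and these cannot be told apart.

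MEIS and PBX proteins belong to the TALE class of homeodomain factors, whose homeodomain carries an extra loop. MEIS proteins bind PBX proteins, and both act with HOX factors as DNA-binding cofactors. The first pharyngeal arch itself is free of Hox expression, yet Meis and Pbx genes act in the head: Meis2 in cranial neural crest, and Pbx genes in the cephalic ectoderm, where they are needed for the lip to fuse. Meis1 is best known from blood formation, Meis3 from hindbrain patterning, Pbx2 as a broadly expressed member, and Pbx3 from neurons that control breathing.

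The loci differ in layout (RefSeq, GRCm38.p6). Meis1 lies at chr11:18880428-19019651 on the minus strand and Meis2 at chr2:115861264-116067537 on the minus strand, with gene bodies of 139 and 206 kb. Pbx3 lies at chr2:34171457-34372045 with a body of 201 kb. Meis3, at chr7:16174012-16186510 on the plus strand, and Pbx2, at chr17:34592259-34597400 on the plus strand, are short, with bodies of 12.5 and 5.14 kb. The window of Meis1 held no other protein-coding gene, that of Meis2 held BC052040 and that of Pbx3 held Mapkap1, while the windows of Meis3 and Pbx2 held 9 and 12 others. A peak in the latter windows can therefore be nearer to another gene than to the member.

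A start was listed in RefSeq for 4 of the 5 members, and the 250 bases before it are given here for 3 members and for 2 genes that begin beside the upstream end of Meis2, because the ectoderm region over that end also covers the first of them. The listed Meis2 start lies inside the gene body, downstream of that end. Capitals mark CpG dinucleotides. The windows are Meis2, chr2:116064620-116064869 (minus); G630016G05Rik, chr2:116066975-116067224 (plus); 2810405F15Rik, chr2:116076097-116076346 (minus); Meis1, chr11:19018970-19019219 (minus); and Pbx2, chr17:34592009-34592258 (plus). The last 2 had a peak in all 7 libraries, G630016G05Rik and 2810405F15Rik only in both ectoderm libraries, and the window before the listed Meis2 start in none, although ectoderm peaks did cover the upstream end of the gene.
Meis2: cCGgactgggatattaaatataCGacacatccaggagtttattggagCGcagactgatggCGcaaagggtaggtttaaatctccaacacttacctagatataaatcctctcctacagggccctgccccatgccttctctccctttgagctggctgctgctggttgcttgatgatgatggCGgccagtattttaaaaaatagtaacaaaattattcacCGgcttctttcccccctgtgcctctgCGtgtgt
G630016G05Rik: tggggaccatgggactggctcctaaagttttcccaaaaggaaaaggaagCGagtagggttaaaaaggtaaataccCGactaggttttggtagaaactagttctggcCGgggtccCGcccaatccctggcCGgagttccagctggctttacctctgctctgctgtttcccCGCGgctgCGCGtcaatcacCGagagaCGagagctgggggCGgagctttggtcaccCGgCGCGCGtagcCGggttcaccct
2810405F15Rik: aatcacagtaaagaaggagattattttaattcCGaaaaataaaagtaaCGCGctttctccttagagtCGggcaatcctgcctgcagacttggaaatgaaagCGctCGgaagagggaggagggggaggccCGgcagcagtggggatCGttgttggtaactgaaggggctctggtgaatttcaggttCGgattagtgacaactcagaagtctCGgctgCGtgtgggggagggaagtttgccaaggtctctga
Meis1: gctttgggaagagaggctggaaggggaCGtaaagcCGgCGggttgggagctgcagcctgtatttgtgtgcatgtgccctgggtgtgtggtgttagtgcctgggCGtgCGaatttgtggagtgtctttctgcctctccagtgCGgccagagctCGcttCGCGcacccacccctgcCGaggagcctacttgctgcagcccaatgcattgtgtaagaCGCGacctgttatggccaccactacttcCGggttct
Pbx2: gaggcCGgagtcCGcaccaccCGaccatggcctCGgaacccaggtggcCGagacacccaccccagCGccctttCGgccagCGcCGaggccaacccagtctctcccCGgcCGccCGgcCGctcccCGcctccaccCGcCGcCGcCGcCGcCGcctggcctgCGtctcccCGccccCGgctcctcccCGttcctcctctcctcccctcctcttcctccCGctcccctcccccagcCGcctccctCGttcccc

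The 250 bases before the listed Meis2 start held 7 CpG, close to the median of 6 over 32851 listed promoters, and 46.3% of promoters held at least as many. Those of Meis1 held 13, of Meis3 12 and of Pbx2 27, the last a number reached by 8.56% of promoters. G630016G05Rik held 17 CpG and 2810405F15Rik held 11. The promoter windows, here with 50 further bases after the start, were searched on both strands for 4 motifs: TGACAG, the MEIS and TGIF core; the PBX and MEIS composite made of TGAT followed directly by TGACAG, which contains the former; and TGATTGAT and TGATTTAT, PBX and HOX composites. None of the 4 member promoters held any of them. Over the 32851 promoters the shares were 19.2%, 0.222%, 0.746% and 0.977%.

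Meis2 showed the widest gap between the replicated groups. Around it the deposited lists held 38 and 23 peaks in the ectoderm libraries and 3 and 4 in the Sox2-positive libraries. The whole incisor had 6, the lower molar 16 and the upper molar 12. The groups did not overlap: the ectoderm mean was 30.5 ± 10.6 (SD, n = 2) and the Sox2-positive mean 3.50 ± 0.707 (SD, n = 2), a difference of 27.0 peaks. Such a gap depends on how long the lists are. Over 20665 autosomal protein-coding genes the median difference was 3 peaks, and 48.5% of them had both ectoderm counts above both Sox2-positive counts.

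The lists were therefore also cut to the 38000 autosomal peaks with the smallest p-values in each. The median gene then had 6 peaks in every library and a difference of 0, and 22.5% of genes had both ectoderm counts above both Sox2-positive counts. Meis2 still had 22 and 18 ectoderm peaks against 3 and 4 in the Sox2-positive cells, with 2 in the incisor and 4 in each molar. The means were 20.0 ± 2.83 and 3.50 ± 0.707 (SD, n = 2 each), and none of the 20665 genes had a larger difference than its 16.5 peaks. With all peaks 4 genes had a larger one than its 27.0. These counts were not adjusted for window length, and longer genes have longer windows: 406 kb for Meis2 and 205 kb for Pbx2. With 2 libraries against 2, a two-sided exact permutation test could not go below p = 0.333, whatever the values.

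**Figure D1:**
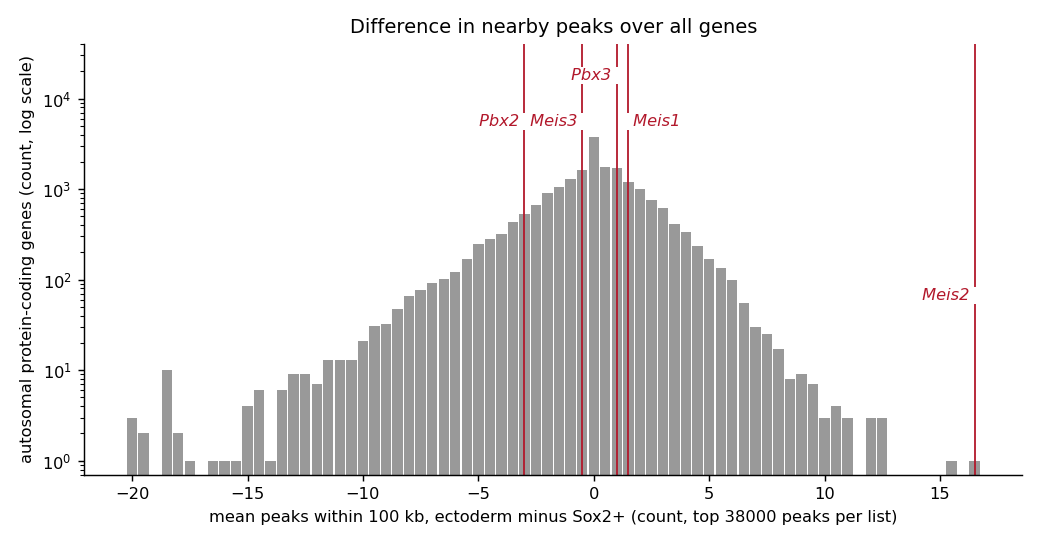
Difference in the mean number of peaks within 100 kb, ectoderm minus Sox2-positive (x axis, count, 38000 peaks per list), over 20665 autosomal protein-coding genes (y axis, number of genes, log scale). Red lines mark the members: Meis2 sits at 16.5 at the right end, Meis1 at 1.5, Pbx3 at 1.00, Meis3 at -0.500 and Pbx2 at -3.00.

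The other long loci gave smaller gaps. Meis1 had 26 and 16 peaks in ectoderm, 9 and 8 in the Sox2-positive cells, 8 in the incisor, 6 in the lower molar and 13 in the upper molar. At 38000 peaks per list these became 10 and 9, 9 and 7, and 5 in each whole tooth, so that the groups overlapped and the means differed by 1.5. Pbx3 had 17 and 6 peaks in ectoderm, 4 and 3 in the Sox2-positive cells, 7 in the incisor and lower molar and 8 in the upper molar. The ectoderm replicates stood far apart here (mean 11.5 ± 7.78, SD, n = 2). At equal length Pbx3 had 5 and 4, 4 and 3, and then 4, 5 and 4 peaks, a difference of 1.00 with overlap.

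The short genes Meis3 and Pbx2 varied little. Meis3 had 14 and 10 peaks in ectoderm, 10 and 12 in the Sox2-positive cells, 13 in the incisor and 14 in each molar, and the groups overlapped. Pbx2 had 14 peaks in both ectoderm libraries, 13 in both Sox2-positive libraries, 17 in the incisor, 14 in the lower molar and 12 in the upper molar. At equal length Pbx2 turned: 9 and 10 peaks in ectoderm lay below 12 and 13 in the Sox2-positive cells, with 13, 9 and 10 in the whole teeth and a difference of -3.00. Both Sox2-positive counts were above both ectoderm counts for 20.7% of all genes at that length, and for 1.92% with all peaks. In all, 4 of 5 members had both ectoderm counts above with all peaks (Meis1, Meis2, Pbx2 and Pbx3), where 48.5% of genes did, and 1 of 5 at equal length (Meis2), where 22.5% did.

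**Figure D2:**
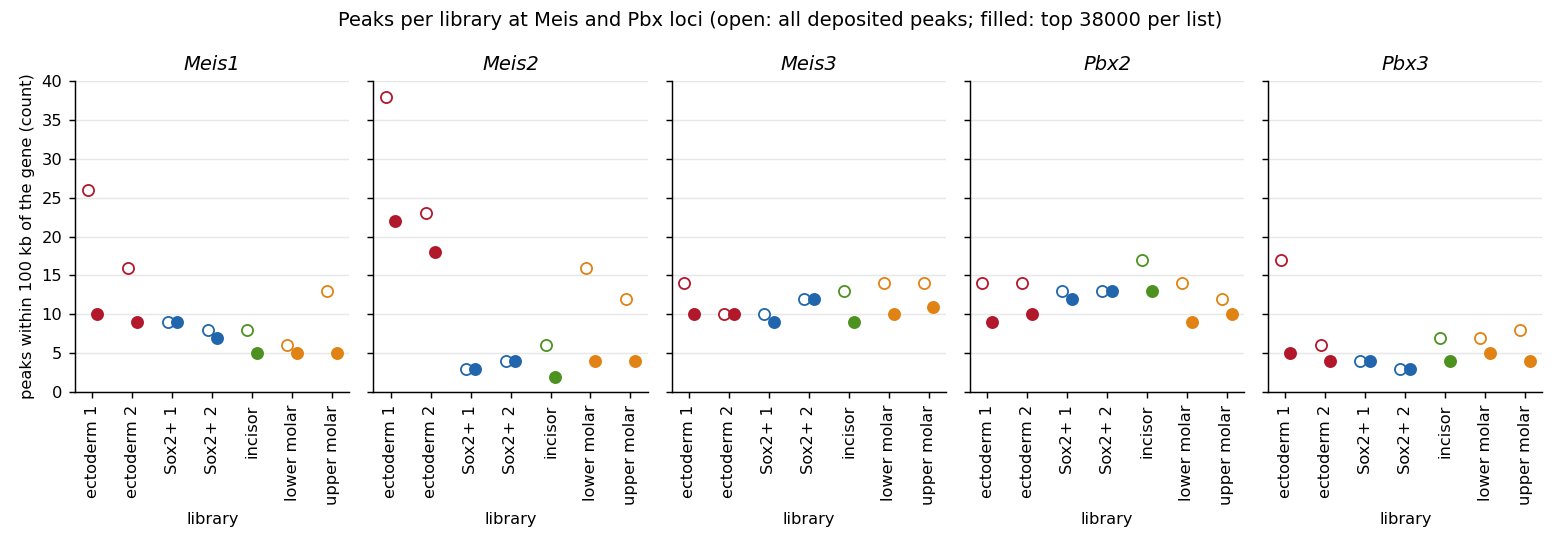
Peaks within 100 kb of each gene (y axis, count) in each of the 7 libraries (x axis). Open circles are all deposited peaks and filled circles the 38000 autosomal peaks with the smallest p-values per list. At Meis2 the ectoderm libraries stand at 38 and 23 (22 and 18 at equal length) and the Sox2-positive libraries at 3 and 4, whereas the filled circles of the other 4 genes lie between 3 and 13.

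To ask which sites made up these counts, peaks of the 7 lists were joined into regions wherever they shared at least 1 bp. A replicated group had a region if both libraries had it, and lacked it if neither had. At Meis2, 21 of the 42 regions with a peak in ectoderm or Sox2-positive cells were in both ectoderm and neither Sox2-positive library (50%), against 23.3% of all regions. At equal list length the share was 16 of 26 (61.5%), against 18.6%. Meis1 had 10 of 27 such regions (37.0%) and 4 of 13 at equal length (30.8%). Meis3 had 3 of 19, Pbx2 had 4 of 19 and Pbx3 had 3 of 18, shares between 15.8% and 21.1% and below that of all regions. At equal length they had 3 of 15 (20%), none of 17 and 2 of 7 (28.6%), against 18.6% of all regions. These shares rest on few regions, and no difference from all regions is read from them. Over the 5 loci together 41 of 125 regions were of this kind, 21 of them at Meis2. The count was 79 without ectoderm replicate 2, 43 without ectoderm replicate 1 and 41 without either Sox2-positive replicate. For these counts no share over all regions is given. Without replicate 2, regions of ectoderm replicate 1 alone also count, and these were 18.4% of all regions.

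The reverse class was smaller, here and over all regions. Regions that both Sox2-positive lists held and no ectoderm list did numbered 7 of 125 (5.60%), against 7.60% of all regions: none at Meis1, 3 at Meis2, 1 at Meis3, 2 at Pbx2 and 1 at Pbx3. At equal length there were 10 of 78 (12.8%), against 14.3%. With Sox2-positive replicate 1 left out the count was 15 with all peaks, and without replicate 2 it was 12. The shares of 5.60% and 12.8% lie near those of all regions, and no difference is read from them. For the counts with a replicate left out, no share over all regions is given.

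**Figure D3:**
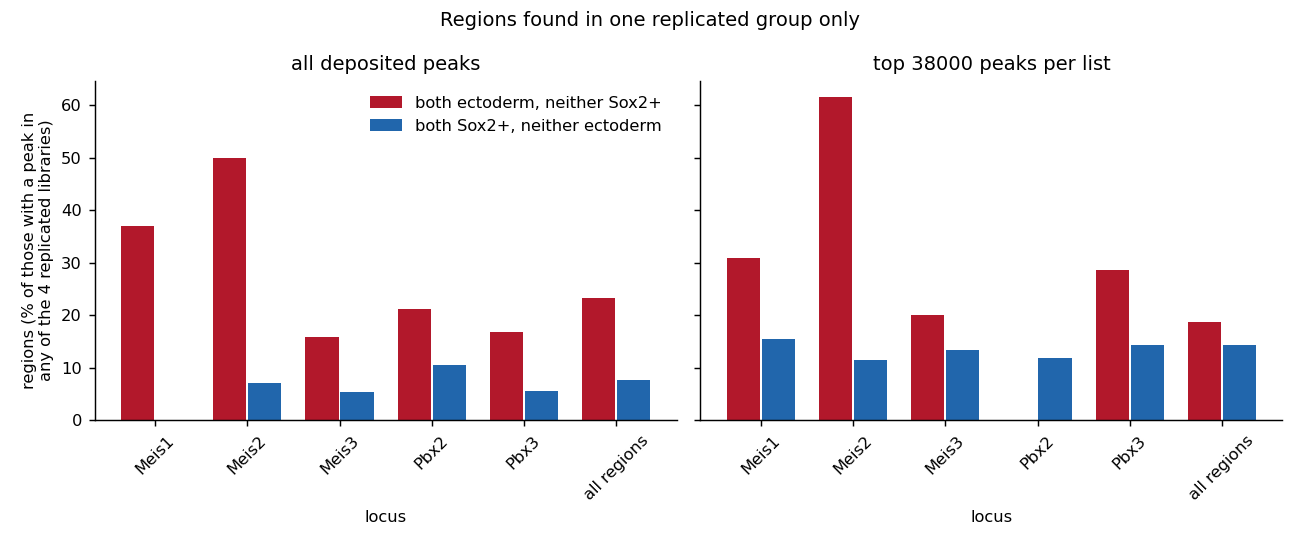
Share of regions found in both libraries of one replicated group and neither of the other (y axis, % of regions with a peak in any of the 4 replicated libraries) at each locus and over all regions, for all deposited peaks (left) and 38000 per list (right). Red bars are ectoderm and blue bars Sox2-positive. The red bar of Meis2 reaches 50% and 61.5%, against 23.3% and 18.6% for all regions.

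A further count was chosen after the values had been seen. No region at Meis2 had a peak of any ectoderm library together with a peak of any Sox2-positive library, 0 of 42 with all peaks and 0 of 26 at equal length. The Sox2-positive libraries had only 3 and 4 regions there with all peaks, so few of the 42 could have been shared. Over all regions the shares were 28.6% and 34.4%. Meis1 had 6 of 27 (22.2%) and Pbx3 had 2 of 18 (11.1%). At Meis3 and Pbx2 8 of 19 were shared (42.1% each).

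The 21 ectoderm regions of Meis2 stretched over 252 kb, 13 of them in the gene body and the rest on both sides of it. Only 2 touched an end of a gene. Their median width was 856 bp. They ranged widely in the authors' signal, which in the caller's output is a sum of significance along the peak and is the peak's own value: the percentile within the list ran from 31.8 to 97.8 in ectoderm replicate 1 (median 78.3) and from 3.60 to 97.5 in replicate 2 (median 61.2). Where a library had several peaks in a region, the highest value is given here and below. Of the 21 regions 17 had no peak in any P2 library, 4 had one in a molar (3 in both) and 1 in the incisor. The 17 were 32.7% of the 52 regions at Meis2, against 11.8% of all regions. At equal length 15 of 27 were of this kind (55.6%), against 12.8%. The replicates shared most sites: 21 of the 22 regions of ectoderm replicate 2 were also in replicate 1. A further 15 of the 52 regions were in ectoderm replicate 1 alone, the longest list (28.8%), against 18.4% of all regions. At equal length 5 of 27 were (18.5%), against 4.95%.

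The strongest lay at the upstream end of Meis2, chr2:116065491-116068060, within 1 kb of the listed Meis2 start and over the start of G630016G05Rik, whose promoter is printed above. Its signal was 4739 and 5025 in ectoderm (percentiles 97.8 and 97.5), 204 in the incisor (percentile 0.984) and 287 in the lower molar (percentile 18.5). The Sox2-positive and upper molar lists had no peak there. The region was thus near the top of both ectoderm lists and near the floor of 200 in the incisor list. A peak within 1 kb of the start in both ectoderm and neither Sox2-positive library was found for 5.63% of the genes with a listed start. The region over the 2810405F15Rik start, chr2:116075942-116076543, had signals of 1465 and 1024 in ectoderm and no peak elsewhere.

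Away from gene ends, chr2:116103479-116104249, 35.9 kb outside the body on the upstream side, gave signals of 3244 and 2051 in ectoderm. In the gene body chr2:115872588-115873691 gave 2680 and 1594. Neither had a peak in any P2 library. Molar peaks joined ectoderm at chr2:115979206-115980488, with signals of 1941 and 1610 in ectoderm, 592 in the lower and 437 in the upper molar.

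The 3 Meis2 regions that both Sox2-positive libraries had were present in every whole tooth as well. The region chr2:115883423-115884483 in the gene body had signals of 749 and 481 in the Sox2-positive cells, 826 in the incisor, 1303 in the lower and 1867 in the upper molar. At chr2:115947767-115948451, also in the gene body, they were 694 and 249, then 431, 1126 and 1254. The third, chr2:115835905-115836445, lay 24.8 kb outside the body with 663 and 312, then 240, 460 and 353. No ectoderm list had a peak at any of the 3. Regions in all 5 P2 libraries and no ectoderm library numbered 7 of 146 over the 5 loci, against 4.56% of all regions, and 7 of 82 at equal length, against 6.29%.

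**Figure D4:**
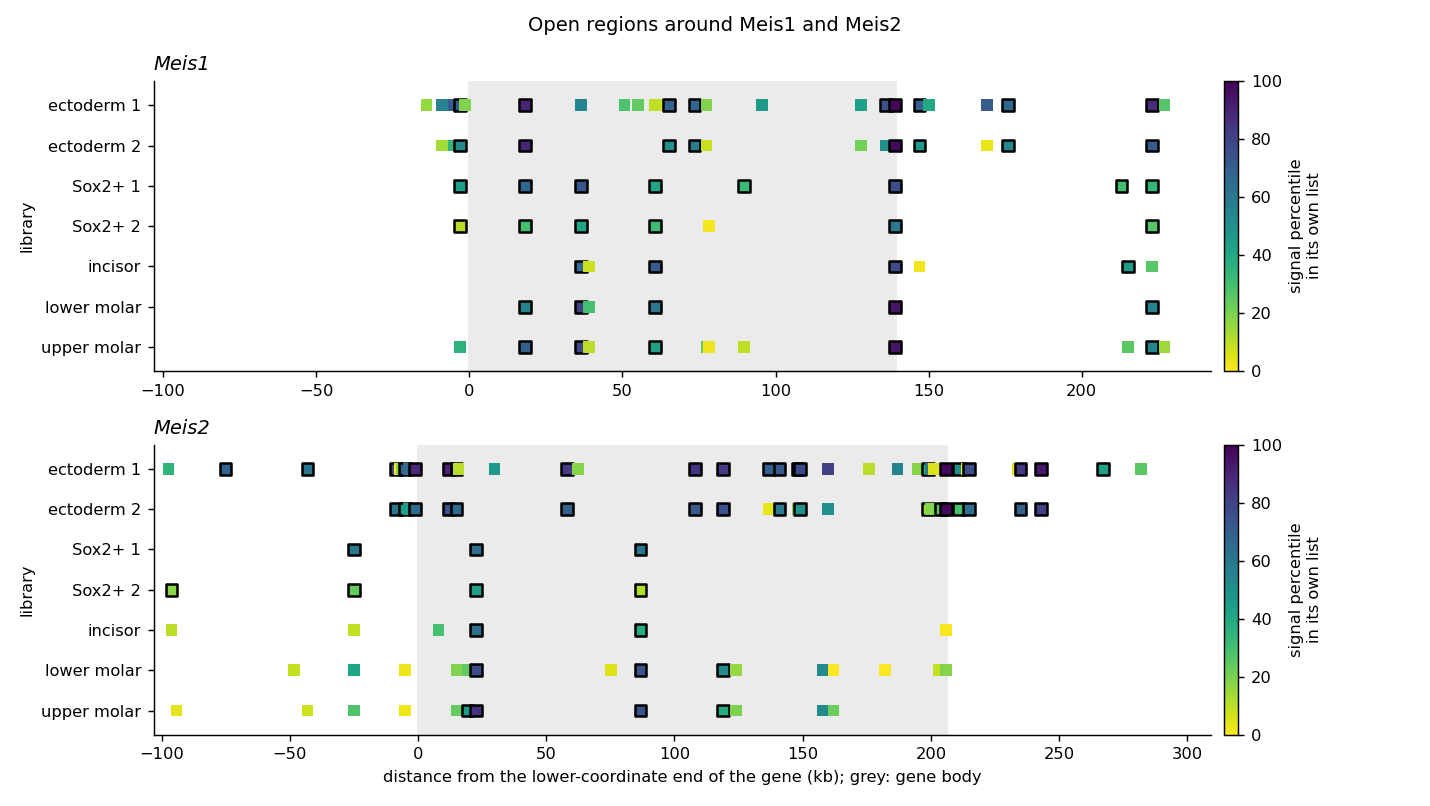
Positions of regions around Meis1 and Meis2 (x axis, distance in kb from the lower-coordinate end of the gene; grey, gene body) in each library (y axis); colour is the percentile of the authors' signal in that library's own list and an outline marks peaks among the top 38000. At Meis2 no ectoderm position is shared with a Sox2-positive library, whereas at Meis1 the region over the start is present in all 7.

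At Meis1 the start was open throughout. The region chr11:19018361-19021315 over the listed start had signals of 5233 and 4800 in ectoderm, 1124 and 709 in the Sox2-positive cells, 1319 in the incisor, 3048 in the lower and 3106 in the upper molar. It ranked at percentiles 98.5 and 97.0 in the ectoderm lists and at 76.5 and 59.0 in the Sox2-positive lists. A start peak in all 7 libraries was found for 56.5% of genes with a listed start, and Meis1, Meis3 and Pbx2 were among them. A second region in all 7, chr11:19102823-19103587, lay 83.2 kb outside the body with 2425 and 1378, 367 and 332, 337, 645 and 637. In the gene body chr11:18897783-18899389 was in every library but the incisor, with 2756 and 3030, 811 and 353, 643 and 1018.

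Of the 10 Meis1 regions in ectoderm and not in Sox2-positive cells, 8 had no P2 peak and 5 lay in the body. The 8 were 27.6% of the 29 regions at Meis1, against 11.8% of all regions. At equal length 4 of 14 were of this kind (28.6%), against 12.8%. The highest ranking of the 10 were chr11:18953596-18954218 with signals of 1067 and 824, chr11:19015457-19016788 with 1372 and 636, and chr11:18945232-18946316 with 1111 and 649. Their ranks were moderate, with medians over the 10 of 68.3 and 39.9 in the ectoderm lists, and 4 of the 10 were in both cut lists. Beside the downstream end of Meis1, chr11:18876533-18878311 over the start of 8430419K02Rik had 1161 and 685, 459 and 242, and 418 in the upper molar, with no peak in the incisor or lower molar.

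Meis3 and Pbx2 had larger shares of sites common to all libraries, and most of these sat at other genes. Of 23 regions at Meis3, 7 were in all 7 libraries (30.4%), and of 21 at Pbx2, 8 were (38.1%), against 14.3% of all regions and none of the 52 at Meis2. The Meis3 start, chr7:16174529-16176142, had signals of 4131 and 3536 in ectoderm, 625 and 1260 in the Sox2-positive cells, 1130 in the incisor, 1390 in the lower and 1570 in the upper molar. Only 2 regions lay in the Meis3 body. Its 3 ectoderm regions without a Sox2-positive peak lay inside Slc8a2, a sodium and calcium exchanger gene. They were chr7:16134188-16135052 (1015 and 538), chr7:16132207-16132829 (872 and 421) and chr7:16153465-16153851 (660 and 386, with 245 in the lower and 347 in the upper molar).

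The Pbx2 start, chr17:34591241-34594120, also reaches the end of Gpsm3. Its highest peak had a signal of 840 and 696 in ectoderm, 864 and 1979 in the Sox2-positive cells, 3617 in the incisor, 3330 in the lower and 1231 in the upper molar. The gene body held only this 1 region. Yet it had 3 and 2 ectoderm peaks, 2 and 1 Sox2-positive peaks, 1 in the incisor and lower molar and 2 in the upper molar. The signal sums along each peak, so values from a split and an unsplit region cannot be compared. It stood at percentiles 60.4 and 53.0 in ectoderm, 68.7 and 88.4 in Sox2-positive cells, and 96.0, 95.4 and 74.9 in the whole teeth. These percentiles hold within each list, and since the lists differ in length they measure no change between groups. At 38000 peaks per list the region dropped out of ectoderm replicate 1. Farther off, chr17:34680754-34681843 inside Tnxb, a tenascin gene, had no ectoderm peak and signals of 872 and 1920 in the Sox2-positive cells, 2389 in the incisor, 1091 in the lower and 1200 in the upper molar. The region over the Ager start, chr17:34597481-34598717, had 1131 and 482 in ectoderm and 241 in the incisor.

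No start was listed for Pbx3, and either gene end was used. The region chr2:34370701-34373838 over its higher-coordinate end was in all 7 lists, with signals of 4439 and 3799, 1982 and 3122, 4400, 3681 and 3507. Genes without a listed start had a peak at an end in all 7 libraries in 52.5% of cases. Near that end chr2:34368367-34369146 was in ectoderm alone, with 2228 and 904. In the gene body 2 regions were in ectoderm and all whole teeth and in neither Sox2-positive library: chr2:34249493-34250539, with 1803 and 1107 in ectoderm, 325 in the incisor, 515 in the lower and 699 in the upper molar, and chr2:34252214-34252640, with 585 and 203, then 636, 488 and 457. Such regions were 9.52% of the 21 around Pbx3, against 1.69% of all regions. At equal length none of 7 were, against 0.398%. No peak of Sox2-positive replicate 1 lay in the Pbx3 body, and 1 peak of replicate 2 did, over the gene end. In the body ectoderm had 10 and 5 peaks and each whole tooth 4. Of the 21 regions around Pbx3, 11 were in ectoderm replicate 1 alone (52.4%), against 18.4% of all regions. At equal length none of 7 were, against 4.95%.

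**Figure D5:**
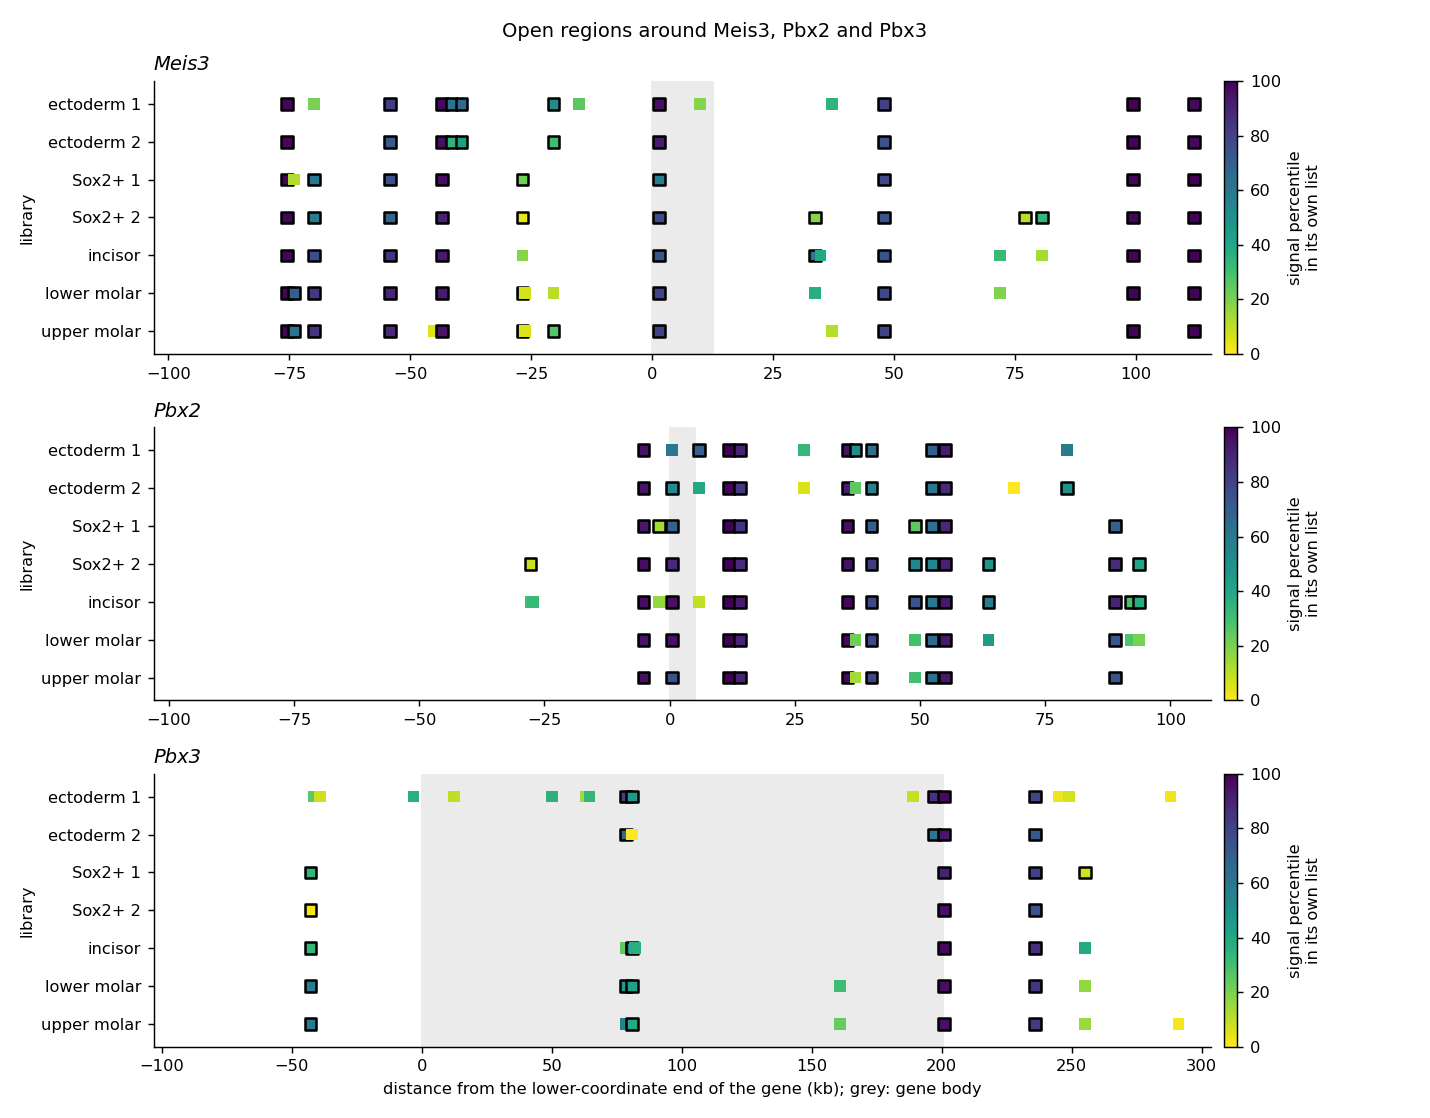
Positions of regions around Meis3, Pbx2 and Pbx3, drawn as for Meis1 and Meis2 (x axis, kb from the lower-coordinate end of the gene; grey, gene body; y axis, library; colour, percentile of signal in the library's own list; outline, top 38000). Columns filled in all 7 libraries number 7 at Meis3, 8 at Pbx2 and 2 at Pbx3.

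The P2 libraries were also set against each other. Against the whole incisor, 2 of 57 regions were in both Sox2-positive libraries and not in the incisor (3.51%), against 1.84% of all regions, and both were at Meis1. In the other direction 13 of 57 were in the incisor and neither Sox2-positive library (22.8%), against 29.6% of all regions. At equal length the counts were 5 of 45 and 3 of 45, against 7.02% and 12.2%. Whole teeth and sorted cells are mixtures to different degrees, and a site open in fewer cells cannot be told apart from a site less open in each.

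Between tooth types, 10 of 77 regions were in the incisor and neither molar (13.0%), against 13.8% of all regions, and 13 were in both molars and not the incisor (16.9%), against 17.8%. Meis2 held 7 of these 13, of 19 regions (36.8%). At equal length it held 1 of 4, and the 5 loci had 6 of 40 and 5 of 40, against 18.5% and 16.3%. The highest ranking of the 7 at Meis2, chr2:116018888-116019528 in the gene body, was in no other library and in neither cut molar list, with signals of 605 in the lower and 606 in the upper molar. Pbx2 held 4 of the 10 incisor regions, of 18 regions (22.2%), and 4 of 13 at equal length (30.8%). Among those with all peaks was chr17:34564182-34564670 over the start of Notch4, a Notch receptor gene. It had 369 in the incisor and 232 in Sox2-positive replicate 2. In the cut lists only Sox2-positive replicate 2 kept that peak.

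The molars were compared with each other alone, whatever the remaining libraries held. Of 67 regions with a molar peak, 10 were in the lower and not the upper molar (14.9%), against 12% of all regions, and 11 were in the upper and not the lower molar (16.4%), against 10.3%. At Meis1 the upper molar had 6 regions that the lower lacked, each of them also with a peak in an ectoderm, Sox2-positive or incisor library, and the lower had none that the upper lacked. At Meis2 there were 2 and 5. Classed anew at equal length, 1 and 2 of 34 regions were of these kinds, against 10.1% and 10.3%.

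The remaining TALE homeobox genes measured were Pknox1, Pknox2, Pbx4, Tgif1, Tgif2, Mkx and Irx1 to Irx6, 12 in all. With all peaks 6 of the 12 had both ectoderm counts above both Sox2-positive counts, namely Tgif2, a repressor, and Irx1, Irx2, Irx3, Irx4 and Irx6 of the Iroquois clusters, which is a share near the 48.5% of all genes. The median difference of the 12 was 5.50 peaks, against 8 for the members and 3 for all genes. At equal length 3 did (Irx1, Irx2 and Irx4), against 22.5% of all genes, and 3 had Sox2-positive above (Pbx4, Irx5 and the tendon regulator Mkx), against 20.7%. The median of the 12 was then -0.250, against 1.00 for the members and 0 for all genes. Irx4 had 13 peaks in both ectoderm libraries and 6 and 5 in the Sox2-positive cells. Its gap was 7.50 in a window of 210 kb, where that of Meis2 was 16.5 in 406 kb. Iroquois genes lie in clusters, but the windows counted here do not overlap.

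Genes with a like pattern were sought over the 7 libraries at 38000 peaks per list, by the summed absolute difference in log2(peaks + 1) within 100 kb, for genes at least 1 Mb away. Nearest to Meis2 were Sema3d, a secreted semaphorin (1.91), Wnt9b, a WNT ligand (2.09), and Lmx1b, a LIM homeobox factor (2.13). Lmx1b had 18 and 21 peaks in ectoderm, 3 and 5 in the Sox2-positive cells, 4 in the incisor and 3 in each molar. The nearest genes to the other members lay closer to them, at 0.51 (Fanci, for Meis1), 0.25 (Dctpp1 and Zfp771, for Meis3), 0.36 (Asl, for Pbx2) and 0.26 (Il21, Selenoi and Zc3h8, for Pbx3).

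The lists held 82461 and 50792 peaks for ectoderm, 42606 and 39017 for Sox2-positive cells, and between 63040 and 70000 for the whole teeth, and the read depth behind them is unknown. With all peaks, the epithelial markers (Krt5, Krt14, Epcam, Cdh1, Esrp1, Grhl2) had a start peak at 6 of 6 genes in every library. At equal length the incisor had 4 (Epcam and Grhl2 lacking) and every other library 6. The summed window counts of these markers were then 72 and 64 in ectoderm, 57 and 63 in Sox2-positive cells and 61 to 76 in whole teeth. Of 6 mesenchyme markers, 4 and 5 had a start peak in ectoderm with all peaks (Prrx1 and Pdgfra lacking it in replicate 1, Pdgfra in replicate 2). In each P2 library 6 did, Sox2-positive cells included. At equal length 3 and 5 had one in ectoderm, 5 in each molar (Prrx1 lacking) and 6 in the remaining libraries. Their summed window counts at equal length were 30 and 33 in ectoderm, 58 and 64 in Sox2-positive cells and 49 to 61 in whole teeth, and their part in the Meis and Pbx differences was not tested. With all peaks, endothelial markers had a start peak at 1 to 3 of 5 genes, blood markers at 1 or 2 of 5 and neural markers at 2 or 3 of 4. Sox10 lacked one in every library.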

How the data were processed

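Chromatin accessibility was measured by ATAC-seq in 7 mouse libraries of 5 groups, which the titles give. The deposited files are 1 narrowPeak list per library. Reads were handled with FastQC, Trimmomatic, Bowtie2, deepTools and Genrich on mm10 (GRCm38), per the submitters' processing notes. Versions, options, read filters and the transposase shift are not given in the sources used here. The deposited signal of each peak and the deposited −log10 p of each peak are the authors' values, not normalized between libraries, and served only to rank peaks within a list. The deposited summit offset was used for 200 bp windows in an alternative. No read counts were used, so depth and intervals are unknown.

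Peaks on placed chromosomes were merged over the 7 lists into regions sharing at least 1 bp. The signal and percentile of a region in a library are the highest among that library's peaks in it. Peaks were counted within 100 kb of gene bodies and within 1 kb of starts, with all peaks and with the top 38000 autosomal peaks per list by −log10 p (lowest value kept 2.94 to 4.79). Genes and promoters came from RefSeq tables of GRCm38.p6. Python 3.11.15, pandas 2.3.3, numpy 2.4.6 and matplotlib 3.10.9 were used, and the counting was tested on simulated data.

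The members and lists were chosen with earlier results of these data known. Regions named lie over a member's start or are up to 3 per locus and presence class by mean signal percentile. Like-pattern genes are the nearest 3, and other genes are named where called or where a peak lies at their end. Just inside the 100 kb limit the outermost regions lay at 87.5, 96.9, 98.6, 88.3 and 90.4 kb from Meis1, Meis2, Meis3, Pbx2 and Pbx3, and the next outside at 101, 102, 108, 102 and 101 kb. Alternatives changed list length, ranking, overlap, peak extent, the lists merged, the window and the replicates.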

Additional observations from a re-analysis of the deposited data

How the results depend on the processing

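No paired analysis was possible because the results are counts that come from no test. Of 76 alternatives for the region counts over the 5 loci, 37 moved the count by over 1.5 times. Of 50 for the peak differences of the 5 genes, 43 had an ectoderm mean above the Sox2-positive mean, also where the libraries overlapped. Most of the 50 kept lists of unequal length, and with all peaks the median difference over all genes was 3 peaks. The cause was not tested. Given first with the top 38000 peaks by p-value, then by signal, then with the better 50% of each list, then in gene bodies only, regions in the incisor and not in Sox2-positive cells went from 13 to 3, 4, 5 and 6. Those in the incisor and not in molars went from 10 to 6, 6, 2 and 2, and those in molars and not in the incisor from 13 to 5, 8, 6 and 8. The class in the lower and not the upper molar went from 10 to 1, 3, 1 and 4 (6 with 50 kb windows), and the class in the upper and not the lower molar from 11 to 2, 1, 1 and 3 (7 with 50 kb windows). Those in Sox2-positive cells and not in the incisor went from 2 to 5, 7, 0 and 1, were 0 with 50% of a region covered, and 4 to 5 with a replicate left out. Ectoderm regions without a Sox2-positive peak went from 41 to 25 (top 38000 by p-value), 20 (better 50%) and 21 (gene bodies). They numbered 79 without ectoderm replicate 2 and 41 to 43 with another replicate left out. Shorter lists and smaller windows also hold fewer regions: 41 of 125 is 32.8% and 25 of 78 is 32.1%, against 23.3% and 18.6% of all regions. Beyond the top 38000 by p-value, no share over all regions is given for the alternatives. A lower count there shows no change in share. The reverse class went from 7 to 3 (better 50%) and 2 (gene bodies), and from 7 to 15 with a replicate left out.

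The Meis2 difference was between 15.5 and 34.5 over the alternatives named here: 16.5 and 17.5 at equal length, 16.0 in the better 50%, 15.5 in the gene body, and 19.5 to 34.5 with a replicate left out. Meis3 turned from 1.00 to -0.500 by p-value and -1.50 by signal, with a range of -1 to 3 when a replicate was left out, the lowest without ectoderm replicate 1. Pbx2 turned from 1.00 to -3.00 by p-value, -1 by signal and -0.500 in the better 50%. Meis1 fell from 12.5 to 1.5 and 4 at equal length, and Pbx3 from 8 to 1.00 in both. Unknown depth limits these counts: an absent peak says that none was called, and the longest list, ectoderm replicate 1, had the most peaks that no other library had at these loci. Regions in that list alone were 35 of 146 (24.0%), against 18.4% of all regions.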
